A study of Mus musculus with 2 samples.

Results

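The miR-130 and miR-301 family was represented by 4 microRNA (miRNA) genes, Mir130a, Mir130b, Mir301 and Mir301b, of the 1973 miRNA genes counted. They were matched by gene identifier through their symbols in the GENCODE M21 annotation, by a rule that uses family membership and no threshold on counts. Small RNA was sequenced from forebrain of healthy B6NCrl mouse embryos of both sexes at 16.5 days, in a single group of 2 libraries called biological replicates 1 and 2, with a size range below 30. The pool of replicate 2 held 41 embryos, and the labels give no number for replicate 1. The labels name 1 donor record for both pools, no treatment and no second stage or tissue, so p-values compare these 2 libraries and not conditions. The pools are whole tissue, in which fewer cells of a type and less RNA per cell cannot be told apart.

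A miRNA is cut from a hairpin precursor and guides the silencing complex to messenger RNAs that pair with its seed, the bases 2 to 8 from its 5′ end. Genes whose mature forms share a seed can act on overlapping sets of targets. miR-130a is known from blood vessel endothelium, where it promotes angiogenesis, and from the repression of Pparg, the master regulator of adipocyte formation. miR-301a lies within Ska2, a gene of chromosome segregation in mitosis.

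The sequences that define the family are the 3p arms, shown with the seed in capitals. All are written 5′ to 3′ and come from RefSeq (GRCm38.p6). Mir301b is shown by its hairpin, with the stretch that equals the seed in capitals.
miR-130a-3p: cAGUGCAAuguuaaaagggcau
miR-130b-3p: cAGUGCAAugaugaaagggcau
miR-301a-3p: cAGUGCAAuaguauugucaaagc
Mir301b hairpin: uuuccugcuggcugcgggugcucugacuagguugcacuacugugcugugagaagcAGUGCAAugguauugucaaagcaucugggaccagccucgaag

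The 3p arms are identical over their first 9 bases and differ from there on, which splits the family into a pair of miR-130 forms and a pair of miR-301 forms. With positions counted from 1 at the 5′ end, miR-130b-3p differs from miR-130a-3p by U11A and A13G, 2 of 22 bases. The 23 bases of the Mir301b hairpin that begin 1 base before the seed differ from miR-301a-3p by A10G alone. Between the forms of the 2 pairs, 9 to 11 of 22 bases differed. The seed AGUGCAA stood at bases 2 to 8 of 7 of the 1738 mature sequences in the table, or 0.403%.

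The 5p arms do not carry the family seed, and their own seeds, in capitals, follow the same split.
miR-130a-5p: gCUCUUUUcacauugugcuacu
miR-130b-5p: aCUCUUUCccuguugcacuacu
miR-301a-5p: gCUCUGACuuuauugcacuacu
miR-301b-5p: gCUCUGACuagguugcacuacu
The 5p seeds of Mir301 and Mir301b are identical. UUGCACU, the reverse complement of the 3p seed, was found by a search of the RNA strand in the hairpins of Mir130b, Mir301 and Mir301b and not in that of Mir130a. Of 1005 hairpins in the table, 14 (1.39%) hold UUGCACU, 12 (1.19%) hold AGUGCAA and 4 (0.398%) hold both. A deposited count covers the whole gene, so reads of the 5p and 3p arms cannot be separated.

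The genes lie at 3 places in the genome (mm10). Mir130a (ENSMUSG00000065484.1) is at chr2:84741115-84741178 on the minus strand, outside any other annotated gene, and its nearest neighbour on that strand, Gm19426, is 991 bases away. Mir301 (ENSMUSG00000065589.1) is at chr11:87113004-87113089 on the plus strand, in an intron of Ska2. Mir130b (ENSMUSG00000065572.1) at chr16:17124061-17124142 and Mir301b (ENSMUSG00000076288.1) at chr16:17124400-17124496 lie 258 bases apart on the minus strand, each in an intron of the protein-coding gene 2610318N02Rik. Whether it is the same intron was not checked. Each pair by sequence is therefore spread over 2 places, and the genomic neighbours belong to different pairs.

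None of the 4 hairpins shares 22 bases with another annotated miRNA hairpin. That search covered exact stretches in annotated hairpins, and the rest of the genome was not checked. The longest shared stretch was 17 bases, between Mir130a and Mir6389. Of the 1973 genes, 904 do share 22 bases with another, and for those a count of uniquely placed reads is uncertain. The depth on the strand of the genes was 5060112 counts in replicate 1 and 4158686 in replicate 2. The family's opposite strand held 3 reads at Mir130a in each library and 0 at the others. Reads mapping to several loci, 40.5% and 43.3% of all reads, are totalled apart in the tables. They enter no gene's count, and enter a denominator only where all reads are used as such.

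The tissue label was checked on a list of neural miRNAs. Of 8 genes analysed, 7 reached 5 counts in each library, and the summed level of the 8 was 19404 and 18497 CPM (counts per 1000000 gene-strand counts), most of it from Mir137, a miRNA of neuronal maturation. The neuronal genes Mir124a-1, Mir124a-2 and Mir124a-3 stood at 1.07 to 4.27 CPM on average, and all 3 share 22 bases with other miRNA genes. Mir9-3 stood at 717 CPM and Mir9-2 at 3.62 CPM on average. Of the neural genes analysed, only Mir137 does not share 22 bases with another miRNA gene. Markers of other tissues were also present. Endothelial Mir126a, which shares 22 bases with another miRNA gene, stood at 16611 and 18999 CPM, and hepatocyte Mir122 at 97.8 and 64.9 CPM. The summed levels were 306 and 240 CPM for 3 erythroid genes and 167 and 222 CPM for 2 myeloid and microglial genes. The erythroid and neural sums join genes that went opposite ways. Erythroid Mir451a stood at 239 and 152 CPM and Mir486 at 24.7 and 18.0, but Mir144 at 42.7 and 70.0. Among the neural genes Mir137 was lower in replicate 2, while Mir128-1 and Mir128-2 were higher. Of 4 muscle genes, Mir206 stood at 18.8 and 25.2 CPM, and Mir1a-1, Mir133a-1 and Mir133a-2, which share 22 bases with other genes, were at 0 in both.

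Mir130a dominated the family. Its count was 132106 in replicate 1 and 110981 in replicate 2, or 26107 CPM (exact Clopper-Pearson 95% interval 25969 to 26247) and 26687 CPM (26532 to 26842). The level was 26397 ± 410 CPM (SD, n = 2), which placed Mir130a seventh of all genes by mean level, at rank 7 in replicate 1 and 6 in replicate 2.

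Mir130b was next, with counts of 26854 and 18454. These are 5307 CPM (5244 to 5371) in replicate 1 and 4437 CPM (4374 to 4502) in replicate 2, and the mean was 4872 ± 615 CPM. Its rank was 37 in replicate 1 and 38 in replicate 2, well below Mir130a, from which its 3p arm differs by 2 bases.

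Mir301 had counts of 12359 and 8941, or 2442 CPM (2400 to 2486) and 2150 CPM (2106 to 2195). Its mean was 2296 ± 207 CPM and its rank 67 in both libraries.

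Mir301b was the lowest member, with 623 and 371 counts. These are 123 CPM (114 to 133) in replicate 1 and 89.2 CPM (80.4 to 98.8) in replicate 2, with a mean of 106 ± 24.0 CPM, at ranks 187 and 197. Its intervals are the widest of the family relative to its level. Intervals here cover counting error only, as no molecular identifiers are described.

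**Figure D1:**
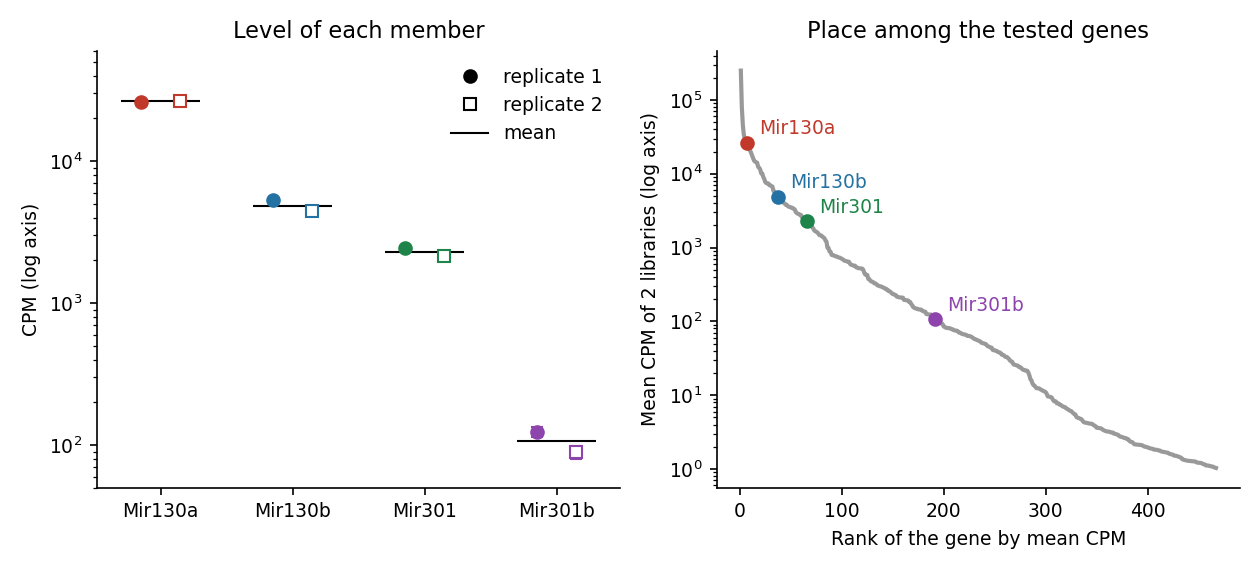
Left, the level of each member in CPM (log axis) in replicate 1 (filled circles) and replicate 2 (open squares), with exact 95% intervals, mostly smaller than the symbols, and the mean as a line. Right, mean CPM (log axis) of the tested genes against their rank. Mir130a stands near the top at 26397 CPM and Mir301b at 106 CPM, and no member's range over the libraries overlaps that of another.

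The order Mir130a, Mir130b, Mir301, Mir301b was the same in both libraries, and no neighbours in it overlapped. Mir130a had 4.92 times the reads of Mir130b in replicate 1 and 6.01 times in replicate 2. Mir130b had 2.17 and 2.06 times those of Mir301, the closest neighbours in level, and Mir301 had 19.8 and 24.1 times those of Mir301b. In two-sided exact binomial tests of the 6 neighbouring comparisons, every adjusted p was at or below 1e-300, the smallest written. The order was taken from these same counts and the tests treat reads as independent. Small p-values were therefore assured at this depth, and they cover counting error only. The annotated mature forms of the members listed above are 22 to 23 bases long, but the tables hold no read lengths. Per 100 bases of the annotated hairpin the order was unchanged, at 41245 ± 640 CPM for Mir130a, 5942 ± 750 for Mir130b, 2670.0 ± 240 for Mir301 and 109 ± 24.7 for Mir301b. Differences in ligation and amplification between miRNAs were not corrected, so these ratios are of reads and not of molecules.

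Together the 4 genes held 3.40% of the gene-strand counts in replicate 1 (exact Clopper-Pearson interval 3.38% to 3.41%) and 3.34% in replicate 2 (3.32% to 3.35%), or 3.37% ± 0.0436 (SD, n = 2). Of all reads in the tables, unassigned reads included, they held 1.26%. Mir130a took 76.8% of the family's counts in replicate 1 and 80.0% in replicate 2. Mir130b took 15.6% and 13.3%, Mir301 7.19% and 6.44%, and Mir301b 0.362% and 0.267%. The share of Mir130a was the one that was larger in replicate 2, and those of the other 3 members were smaller.

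Grouping genes by seed places these levels among those of other families. The genes that carry AGUGCAA on a listed mature arm held 3.36% ± 0.0412 of the counts, ninth of 1205 seeds. This sum runs over 6 of the 927 genes that could be matched to the RefSeq table and leaves out Mir301b. The seeds next above it belong to Mir30e and Mir30a, of which GUAAACA, the seed of the Mir30 family, stood at 3.66% ± 0.241, and the next below to Mir335 at 3.34% ± 0.583. The difference to Mir335 is smaller than the spread of its 2 libraries, and in replicate 1 Mir335 stood above the family seed, at 3.76% against 3.39%. Each gene was counted under the seeds of both its arms, so 1 gene can hold several places in this order. Mir335 does so below the family seed, and Mir99a, Mirlet7g, Mirlet7i and Mir30e do so above it. Fewer families than seeds therefore stand above it by mean share, those of Mir99a, Mirlet7g, Mir17 and Mir30e. Without genes that share 22 bases the family seed had rank 7.

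Other genes with the family seed added almost nothing. A search of the mature sequences found Mir130c, Mir6341, Mir6389 and Mir721, of which Mir721 was not analysed here.
miR-130c: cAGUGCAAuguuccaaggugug
miR-6341: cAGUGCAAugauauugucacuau
miR-6389: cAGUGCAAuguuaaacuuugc
Mir130c had 0 counts in replicate 1 and 1 in replicate 2. Mir6341 and Mir6389 had 0 in both, so their uniquely placed reads lay under the limit that a count of 0 sets, 0.593 CPM in the first library and 0.721 CPM in the second. None of the 3 shares 22 bases with another annotated miRNA hairpin. All 3 mature sequences begin with the 9 bases common to the family, and at most 1 read of each was counted per library, beside 2296 to 26397 CPM for Mir130a, Mir130b and Mir301.

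Genes with an overlapping seed were far lower than the family. Their mature forms hold 6 of the 7 seed bases, in capitals, shifted by 1 base from their place in the family.
miR-148a-3p: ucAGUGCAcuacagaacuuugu
miR-148b-3p: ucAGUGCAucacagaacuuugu
miR-152-3p: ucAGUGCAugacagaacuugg
miR-19a-3p: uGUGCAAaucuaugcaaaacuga
miR-19b-3p: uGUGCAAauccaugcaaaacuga
The 6 genes of this list, all of which reached 5 counts in each library, summed to 391 and 447 CPM. The family's sum was 86.9 times that in replicate 1 and 74.6 times in replicate 2. The search of the mature sequences also found Mir350, at 567 and 594 CPM, and Mir291b, with 1 and 0 counts, which were not in the list. Mir350 was found through its 5p arm, and its count covers both arms, so how many reads carry that seed is unknown. Mir350 alone was above the sum of the 6 genes, and with both added the family's sum was 35.5 and 32.0 times that of the 8 genes. Of the list, Mir148b was highest at 183 ± 1.11 CPM above Mir301b in both libraries. Mir148a followed at 145 ± 38.1 CPM, below Mir301b in replicate 1 at 118 CPM and above it in replicate 2 at 172 CPM. Mir152 stood at 25.7 ± 6.47 CPM. Mir19a, of the Mir17 to Mir92 cluster that promotes proliferation, stood at 49.8 ± 3.09 CPM, Mir19b-1 at 12.4 ± 0.178 and Mir19b-2 at 3.40 ± 1.06. The last 2 have the same mature sequence and share 22 bases, so their levels are uncertain. The same holds for the sums that include them and for the ratios of the family to those sums.

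The members differed between the libraries in opposite directions. The exact binomial test, scaled by TMM (trimmed mean of M values) and adjusted by Benjamini-Hochberg over all tested genes, called 3 of the 4 members, where it called 45.3% of the 466 tested genes. The log2 ratio of replicate 2 to replicate 1 was 0.18 for Mir130a (adjusted p = 2.90e-194), -0.11 for Mir130b (5.91e-16) and -0.32 for Mir301b (0.00182). For Mir301 it was -0.04 and missed the threshold (0.0945). The median log2 ratio was -0.08 over the 4 members and 0.01 over all tested genes. Higher calls made up 23.4% of the tested genes and lower calls 21.9%.

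Scaling matters at this size of difference. With plain library totals every log2 ratio was lower by 0.14, which put Mir130a at 0.03, Mir130b at -0.26, Mir301 at -0.18 and Mir301b at -0.46, all 4 of them called, 1 higher and 3 lower. The background with plain totals was 47.6% of tested genes, 14.4% higher and 33.3% lower. With median of ratios scaling all 4 were called too, Mir301 at -0.05 (adjusted p = 0.0462, exact binomial test), against 45.9% of tested genes, 23.4% higher and 22.5% lower. Since the test knows only the noise of counting and not the spread of pools, deep genes are called at small differences. Of the 273 genes that reached 100 counts in each library, 57.9% had a smaller absolute log2 ratio than Mir301b, 38.8% than Mir130a, 24.9% than Mir130b and 7.69% than Mir301. With TMM, endothelial Mir126a had a log2 ratio of 0.34 in the same direction as Mir130a. Neural Mir128-1 and Mir128-2 were at 0.38 and 0.34, and Mir137 was at -0.06. The other listed neural genes were not called. Mir9-3 was at 0.07 and Mir124a-2 at 0.77, while Mir9-2 was at -0.42, Mir124a-1 at -0.29 and Mir124a-3 at -0.10. The median over the 8 neural genes was 0.0006. Of these, all but Mir137 share 22 bases with another miRNA gene. The part of any of them in the result was not tested.

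**Figure D2:**
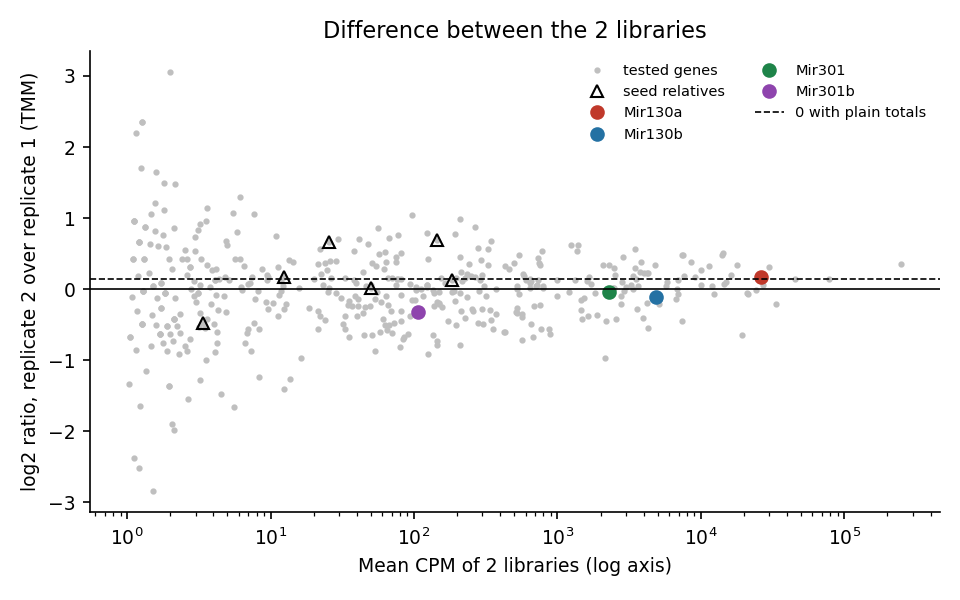
The log2 ratio of replicate 2 to replicate 1, scaled by TMM, against mean CPM (log axis) for the 466 tested genes (grey), the 6 listed genes with an overlapping seed (triangles) and the 4 members (coloured). The dashed line is where the ratio is 0 with plain totals, and Mir130a at 0.18 lies just above it while Mir130b, Mir301 and Mir301b lie below 0.

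Ratios between members within a library do not depend on scaling. The ratio of Mir130a to Mir130b was higher in replicate 2 by 1.22 times (Woolf 95% interval 1.20 to 1.25), and the adjusted p was 4.36e-83 (two-sided Fisher's exact test, 6 pairs). Its ratio to Mir301 was higher by 1.16 times (1.13 to 1.19, adjusted p = 1.13e-24 by Fisher's exact test) and to Mir301b by 1.41 times (1.24 to 1.60, 2.64e-07). Relative to each of the other members, Mir130a was thus higher in replicate 2. Mir130b and Mir301, on different chromosomes, had the ratio that changed least, from 2.17 to 2.06, a log2 change of -0.07 (-0.12 to -0.03, adjusted p = 0.00346 by Fisher's exact test). The ratio of Mir301 to Mir301b was higher in replicate 2 by 1.21 times (1.07 to 1.39, 0.00453). These tests cover counting error only, with 1 ratio per library and no measure of the spread between further pools.

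**Figure D3:**
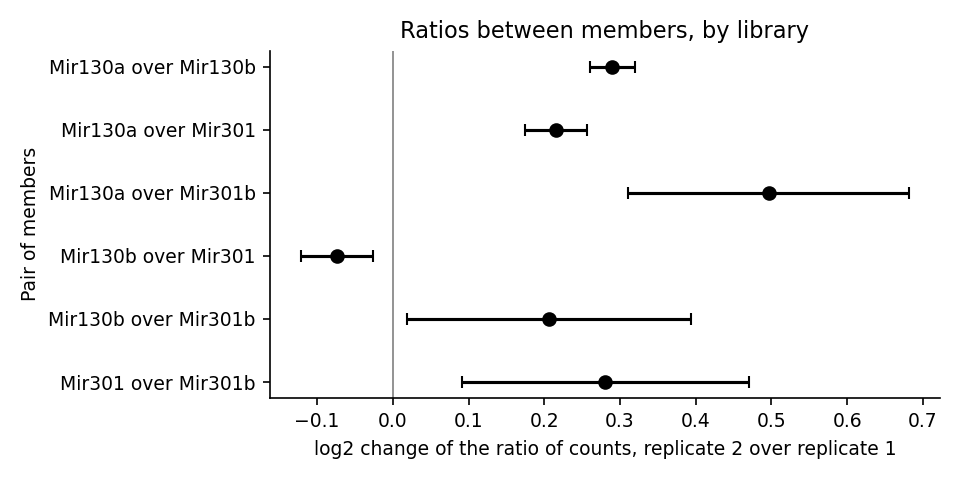
Log2 change, replicate 2 over replicate 1, of the ratio of counts for each of the 6 pairs of members, with Woolf 95% intervals as bars. The 3 ratios of Mir130a to another member lie between 0.22 and 0.50, and the ratio of Mir130b to Mir301 lies nearest to 0 at -0.07.

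The genomic neighbours Mir130b and Mir301b were unequal. Mir130b had 43.1 times the reads of Mir301b in replicate 1 and 49.7 times in replicate 2, although the hairpins lie 258 bases apart within introns of 1 gene. The ratio was higher in replicate 2 by 1.15 times (1.01 to 1.31, adjusted p = 0.0312 by Fisher's exact test). Across 117 pairs of neighbouring miRNA genes on 1 strand, with starts within 10 kb and 5 or more counts in each library, the median ratio of the higher to the lower gene was 7.51, and Mir130b with Mir301b had rank 30 from the most unequal. Genes with fewer counts were skipped when pairs were formed, and a gene can stand in more than 1 pair. Among the 74 pairs without genes that share 22 bases, it ranked 16 and the median was 6.87. The absolute log2 change of its ratio between libraries was 0.21, against a median of 0.19 over the 117 pairs.

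**Figure D4:**
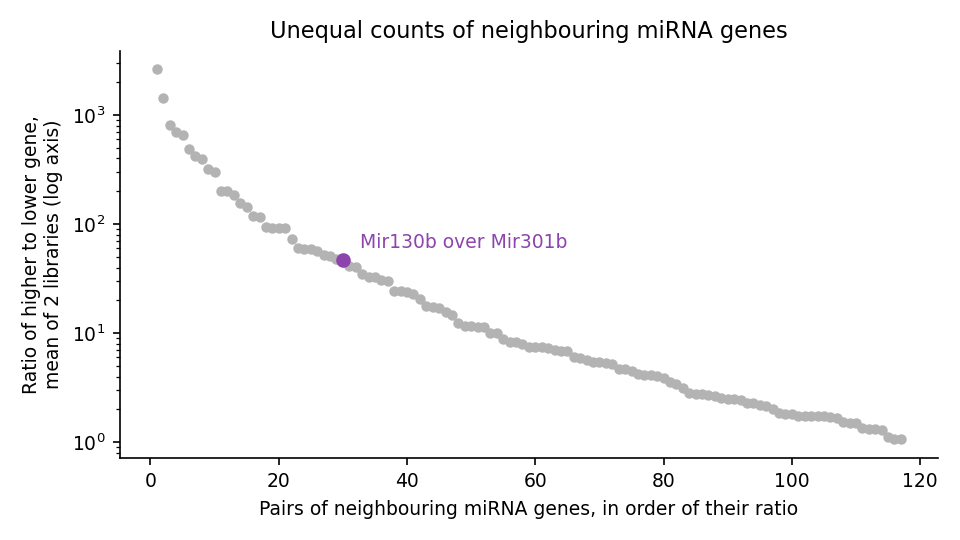
Ratio of the higher to the lower gene (mean of 2 libraries, log axis) for 117 pairs of neighbouring miRNA genes, in order of that ratio. The pair of Mir130b and Mir301b, coloured, lies at 46.4, above the median of 7.51.

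The genes nearest to each member in mean level belonged to other families. Mir130a stood between Mir17 at 27023 ± 1052 CPM, of a cluster that promotes proliferation, and Mir30e at 24178 ± 1840, with Mir100 and Mir149 beyond them. Its distance to Mir17 was smaller than the spread of Mir17, and their order was reversed in replicate 2. Mir130b stood between Mir127 at 5101 ± 869 CPM, an imprinted miRNA of the Dlk1-Dio3 region, and Mirlet7f-2 at 4826 ± 454, with Mir125a and Mir369 beyond them, and its difference from Mir127 and Mirlet7f-2 was within their spread. Mir301 stood between Mir298 at 2460 ± 159 and Mir92-1 at 2292 ± 215, with Mir1983 and Mir598 beyond them. Mir301b stood between Mir181a-2 at 113 ± 7.87 and Mir362 at 104 ± 7.59, with Mir30b and Mir1264 beyond them. All 4 of the genes around Mir301b missed the threshold of the binomial test between libraries, at log2 ratios from -0.10 to 0.03, while Mir301b was called at -0.32 (adjusted p = 0.00182), though the difference of Mir301b from them was not tested. The likeness is of the mean level over 2 libraries only.

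Of the 6 listed genes with an overlapping seed, the exact binomial test called 2, against the same background of 45.3%, both higher in replicate 2, Mir148a at a log2 ratio of 0.69 (adjusted p = 4.04e-17) and Mir152 at 0.66 (0.00149). Mir148b was at 0.13, Mir19a at 0.02, Mir19b-1 at 0.18 and Mir19b-2 at -0.48, none of them called. The list's median was 0.15, and 0.01 with plain totals, where the members' medians were -0.08 and -0.22 and those of all tested genes 0.01 and -0.14. Mir350, outside the list, was also called higher, at 0.21 (adjusted p = 3.63e-07). With Mir350 and Mir291b added, 3 of 7 tested genes were called, all higher in replicate 2, and the median was 0.18, or 0.03 with plain totals. Over all tested genes 45.3% were called in either direction and 23.4% higher. Whether these few genes differ from that background was not tested.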

How the data were processed

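Small RNA of 2 pools of mouse forebrain was sequenced. The deposited tables hold raw read counts per gene in 3 columns, without regard to strand and for each strand. Per the file headers in the descriptions deposited beside the tables, reads were placed on mm10 with the GENCODE M4 annotation. The aligner and the counter are steps not given in the sources used here. A gene's count is that of the strand with more reads in all. Except where all reads are the denominator, the 4 rows of unassigned reads were left out of totals and tests. They held 40.5%, 19.1% and 2.50% of reads in replicate 1, and 43.3%, 15.2% and 2.82% in replicate 2, as reads that map to several loci, that are unmapped and that fall outside listed genes. Symbols and positions came from GENCODE M21 (GRCm38, which mm10 names), and 79 of 1973 genes had no symbol there.

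Where both libraries together held 10 or more counts, a gene was tested by a two-sided exact binomial test, with library sizes scaled by TMM in edgeR 4.0.16 (R 4.3.3), Benjamini-Hochberg adjustment and a threshold of 0.05. Log2 ratios were taken after adding 0.5. Ratios of members were compared by Fisher's exact test (scipy 1.17.1). A quasi-likelihood test needs a second group. The family, the lists and the tests were chosen with earlier results of these data known, although the rule that matches the members uses no count. Named genes are the members, the listed relatives and tissue markers, the 2 genes next above and below each member in level, host and neighbouring genes, and, named after their counts could be seen, those found by sequence. Alternatives covered scaling, strand, filters, denominators and single libraries, and the length scaling and the overlapping seed list with every gene found were added after the data were seen.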

Additional observations from a re-analysis of the deposited data

How the results depend on the processing

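The 4 levels, the family share and the shares within the family rest on 2 libraries. Without replicate 1 or replicate 2 the family share ranged from 3.34% to 3.40%, and the levels from 26107 to 26687 CPM for Mir130a, 4437 to 5307 for Mir130b, 2150 to 2442 for Mir301 and 89.2 to 123 for Mir301b. With all reads as the denominator the levels were 9915 CPM for Mir130a, 1828 for Mir130b, 862 for Mir301 and 39.8 for Mir301b, and the family share was 1.26%, since that denominator is larger. With unstranded counts Mir130a was at 25921 CPM, the family share at 3.31% and the share of genes with the seed at 3.30%. Per 100 bases of hairpin the levels were 41245 for Mir130a, 5942 for Mir130b and 2670.0 for Mir301. The log2 ratio of Mir301 was -0.18 with plain library totals (adjusted p = 1.86e-19, exact binomial test) and -0.046 with median of ratios scaling (0.0462), both called. With 2 libraries, leaving out 1 gives the other library's value, and the family has too few opposite-strand reads for unstranded counts to change ratios between members, so neither setting tests those results. With every gene found by sequence, the family's sum was 35.5 and 32.0 times that of genes with an overlapping seed. Those genes include Mir19b-1 and Mir19b-2, whose levels are uncertain. The ratio of Mir130b to Mir301b rests on 371 counts of Mir301b in replicate 2. No paired analysis was possible because all samples form 1 group.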
